A study of Mus musculus with 16 samples.

Results

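Imprinted genes that act on growth were followed in adult mouse retina and newborn mouse cortex. The genes considered were Meg3, Nnat, Impact, H19, Igf2, Peg3, Cdkn1c, Ndn, Mest and Dlk1, and every probe set was taken whose platform annotation gives 1 of these symbols and no other. The rule found 9 of the 10 genes, on 14 of the 12422 probe sets tested, among 8251 genes with a probe set of their own. H19 is annotated here only on a probe set shared with another gene, so it was not analysed. Of the 9 genes, Meg3 and Cdkn1c are expressed from the maternal allele and have 3 probe sets. The other 7 genes are expressed from the paternal allele and have 11 probe sets. These classes are textbook knowledge of mouse imprinting and were not measured in these tissues.

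Total RNA was made into biotin-labelled cRNA and hybridised to 16 1-colour oligonucleotide arrays. The groups were adult retina with 5 arrays and newborn cortex with 5 arrays at the first site, and adult retina with 3 arrays and newborn cortex with 3 arrays at site 2. Per the labels, the retina came from a pool of 350 C57/B6 mice and the cortex from 19 mice at postnatal day 1, with no genetic alteration or treatment described, and these numbers are given with the first-site samples. The stated aim was to measure variation between replicates and between sites. For the cortex donors the labels name both C57/B6, with the samples, and Swiss-Webster, in the design text, so organ, age and possibly strain differ together and cannot be told apart. The arrays of a tissue are aliquots of a single pool, so the p-values below measure only technical spread. In bulk RNA, fewer cells of a type and less RNA per cell cannot be told apart.

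Imprinted genes carry a DNA methylation mark set in the egg or the sperm, and most are transcribed from only 1 parental allele. Paternally expressed imprinted genes often promote fetal growth and maternally expressed ones often restrain it, and many are active in the embryo and in newborn brain and decline after birth. In the nervous system several of them mark young neurons, while the imprinted state of some is specific to a tissue or a stage. The arrays measure the summed transcript and do not separate the alleles.

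The tissue labels were checked on markers. Retina exceeded cortex for all 9 measured photoreceptor genes at either site, and on the first-site arrays their summed scaled intensity was 50651 to 58685 in retina and 142 to 199 in cortex. Of 7 measured genes of newborn cortical neurons, 6 were lower in retina at both sites, with a first-site sum of 742 to 1031 in retina and 15128 to 17165 in cortex. Values below are scaled intensities, with each array's median set to 100, and differences are retina minus cortex on the log2(intensity + 16) scale after centring. The median deposited intensity ran from 45.7 to 216 over the 16 arrays, and both extremes are cortex arrays of site 2. The array at 45.7, cortex replicate 2 of site 2, gave the most extreme value of its group for several of the genes below.

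The promoters of 4 of the genes are shown because they stand for the patterns described below, namely Nnat and Meg3 as genes lower in retina, Mest as a gene higher in retina and Peg3 as a gene whose probe sets differed. Each window holds 250 bases before and 50 after a transcription start, from RefSeq on build GRCm38.p6, written 5′ to 3′ on the gene's strand. The windows are chr2:157559828-157560127 on the + strand for Nnat, chr12:109540746-109541045 on the + strand for Meg3, chr6:30737800-30738099 on the + strand for the second listed start of Mest, and chr7:6730370-6730669 on the - strand for Peg3. Capitals mark TGCCGC or its reverse complement GCGGCA, a CpG-containing hexamer found in binding sites of the zinc finger protein ZFP57, which protects methylation imprints.
Nnat: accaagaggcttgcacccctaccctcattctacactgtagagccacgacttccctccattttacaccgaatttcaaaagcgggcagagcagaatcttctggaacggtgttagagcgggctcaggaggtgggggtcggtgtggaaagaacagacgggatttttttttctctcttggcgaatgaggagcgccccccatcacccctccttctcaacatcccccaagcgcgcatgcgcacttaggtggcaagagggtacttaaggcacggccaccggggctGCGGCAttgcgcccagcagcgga
Meg3: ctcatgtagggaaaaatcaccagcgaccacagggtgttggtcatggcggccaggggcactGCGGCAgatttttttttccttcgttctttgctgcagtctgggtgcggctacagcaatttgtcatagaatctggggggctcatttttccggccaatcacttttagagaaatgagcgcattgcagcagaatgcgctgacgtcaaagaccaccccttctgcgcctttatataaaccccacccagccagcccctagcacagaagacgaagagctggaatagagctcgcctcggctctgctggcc
Mest: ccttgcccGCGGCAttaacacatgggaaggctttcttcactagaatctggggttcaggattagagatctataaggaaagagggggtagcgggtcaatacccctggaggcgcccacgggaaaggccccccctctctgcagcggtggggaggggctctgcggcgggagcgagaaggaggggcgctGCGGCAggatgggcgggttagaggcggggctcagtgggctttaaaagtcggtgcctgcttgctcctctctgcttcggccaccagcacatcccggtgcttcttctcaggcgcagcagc
Peg3: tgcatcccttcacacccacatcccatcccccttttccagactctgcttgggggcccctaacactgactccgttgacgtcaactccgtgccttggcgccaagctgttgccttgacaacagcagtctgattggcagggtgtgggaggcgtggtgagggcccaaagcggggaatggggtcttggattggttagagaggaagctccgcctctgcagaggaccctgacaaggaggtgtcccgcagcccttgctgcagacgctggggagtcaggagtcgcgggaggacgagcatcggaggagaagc
The Mest window holds 2 such hexamers, the Nnat and Meg3 windows hold 1 each and the Peg3 window holds 0.

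Windows were used for 7 of the genes, 13 windows in all, since several genes have more than 1 start. Member windows on 1 chromosome were left out of this selection, and no window of Impact or Cdkn1c is among the 13. TGCCGC on either strand was present in 5 of the 13 windows and in 11.6% of all 32851 windows of the same length. The 5 are 1 window each of Nnat, Meg3 and Igf2 and 2 windows of Mest that start 3 bases apart and share nearly all of their letters. The hexamer holds a CpG, and the share over all windows was not matched for CpG content, so enrichment was not tested. TATAAA on either strand was present in 1 of the 13 windows, the first start of Meg3, and in 13.6% of all windows. The motif AANATGGC, on either strand, which resembles the core bound by the factor YY1, was in 0 of the 13 windows and in 6.05% of all windows. Of the 13 windows, 10 held more CpG dinucleotides than the median of 7 over all windows. The counts were 17 for Nnat and for each of the downstream starts of Mest, 13 for Peg3 and for the first start of Meg3, 11 for Ndn and 9 for Dlk1. Igf2 spanned the widest range, with 2, 7, 14 and 24 over its 4 windows. A match describes the letters of a window and says nothing about binding.

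**Figure D1:**
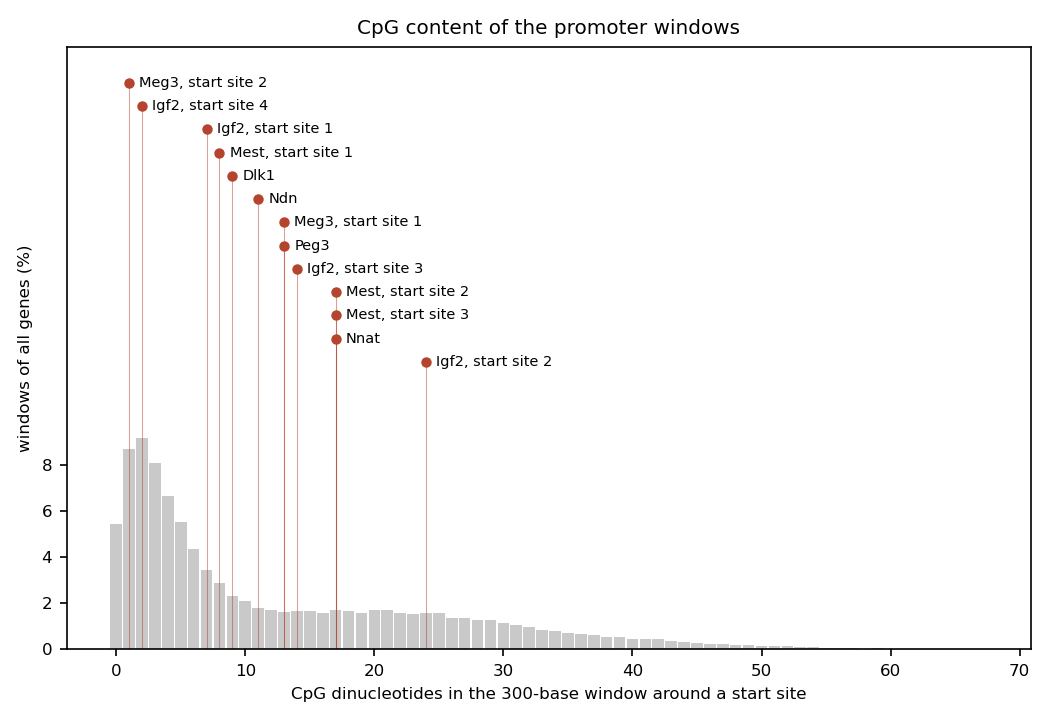
CpG dinucleotides in the 300-base promoter windows. Grey bars give the percent of all 32851 windows at each count, and red points mark the 13 windows of the imprinted genes, whose height only separates the labels. The points run from 1 for the second start of Meg3 to 24 for the second start of Igf2, with 10 above the median of 7.

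At the first site, 12 of the 14 probe sets passed the limma test at an adjusted p under 0.05, against 47.1% of all probe sets tested. Of the 12, 2 were higher in retina, as were 21.9% of all probe sets, and 10 were lower, as were 25.2% of all. At site 2, 10 of the 14 passed, against 32.5% of all, with 2 higher in retina (16.7% of all) and 8 lower (15.9% of all). These shares over all probe sets include many dim ones, whereas 13 of the 14 were above the median signal. In a fit on the 6211 probe sets above it, 4422 passed at the first site and 3197 at site 2. Of the 13 in that fit, 12 and 10 passed, so part of the excess over all probe sets goes with signal. Retina and cortex arrays were apart, with no overlap, for 11 of the 14 at the first site, against 38.8% of all probe sets, and for 10 at site 2, against 47.5% of all. The same 10 probe sets were past the threshold in the same direction at both sites, a pattern shown by 28.6% of all probe sets. Read on the probe set with the highest mean of each gene, 6 of the 9 genes were lower in retina at both sites (Meg3, Nnat, Igf2, Cdkn1c, Ndn and Dlk1), 2 were higher at both (Mest and Impact), and Peg3 fell only slightly at the first site. The median difference over these 9 readings was -0.95 at the first site and -1.03 at site 2, against -0.05 and -0.02 over all probe sets.

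**Figure D2:**
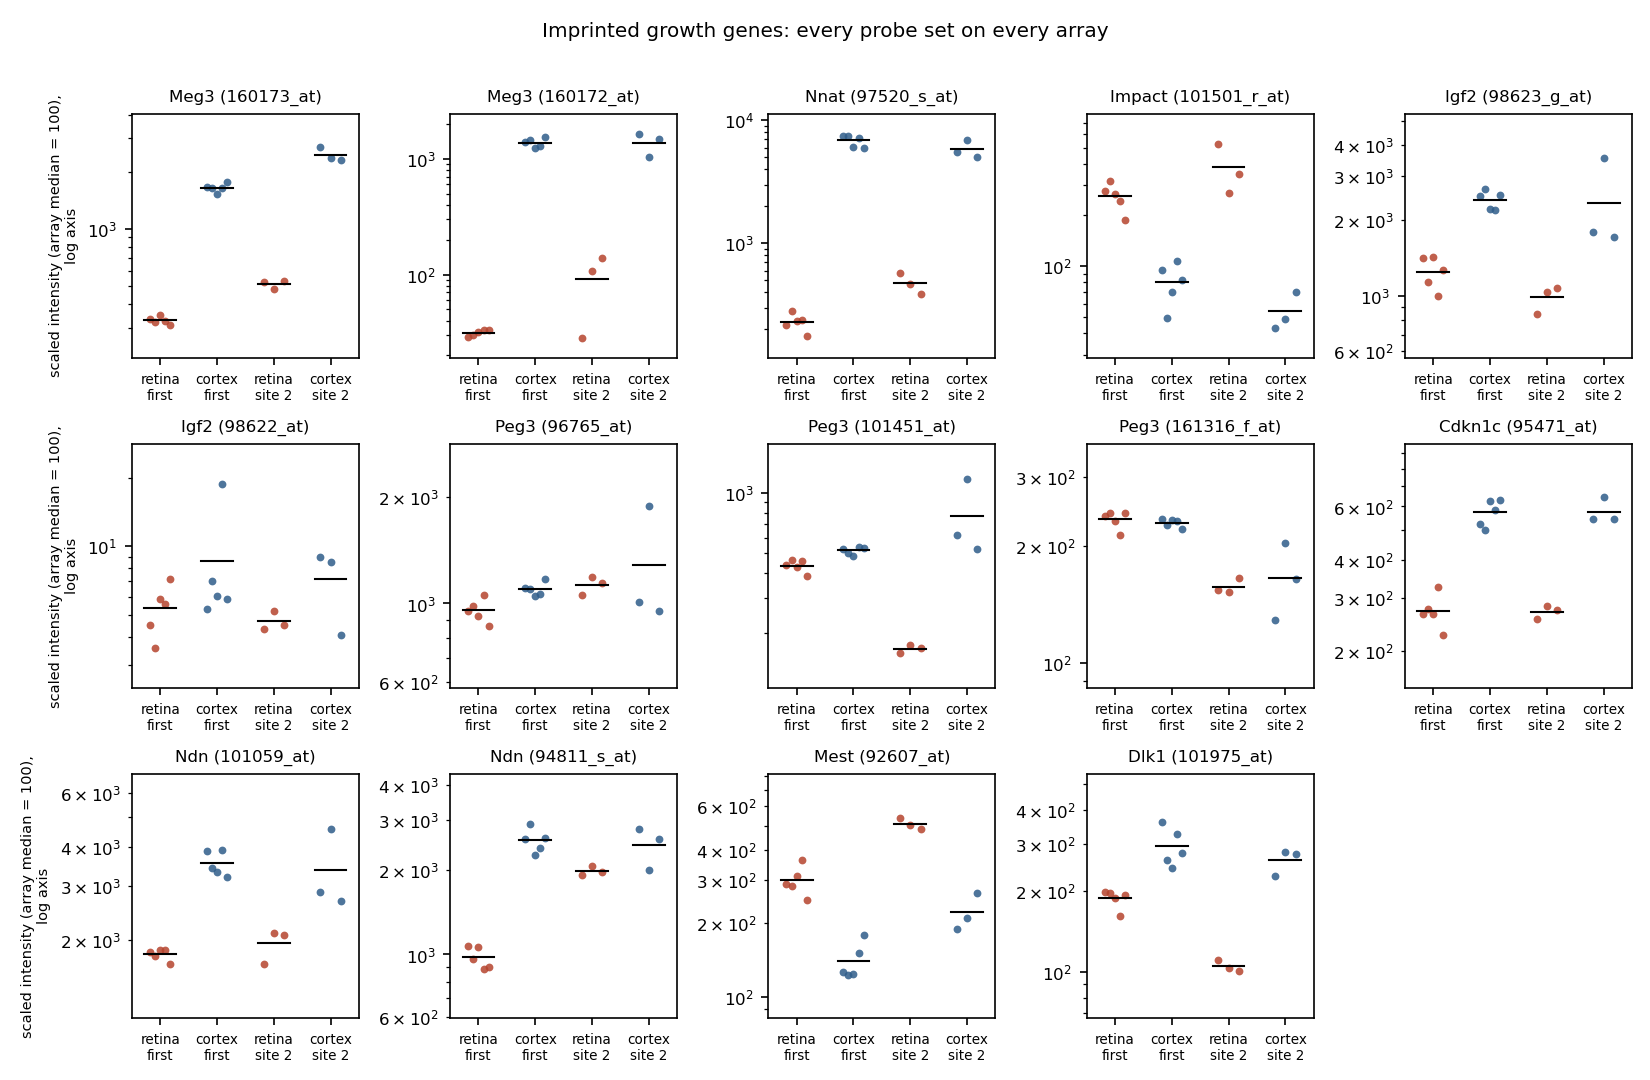
Scaled intensity (array median = 100, log axis with its own range in each panel) of the 14 probe sets on the 16 arrays. Red points are retina arrays, blue points cortex arrays and black bars group means. Retina lies below cortex without overlap at both sites for Meg3, Nnat, Igf2 (98623_g_at), Cdkn1c, Ndn (101059_at), Dlk1 and Peg3 (101451_at), and above it for Mest and Impact.

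Igf2, the fetal insulin-like growth factor, was lower in retina. Its probe set 98623_g_at read 1416, 1138, 1427, 998.8 and 1265 in retina, against 2499, 2671, 2213, 2204 and 2532 in cortex, on the first-site arrays. At site 2 it read 847, 1034 and 1075 in retina, against 1790.4, 3551 and 1711 in cortex. Every retina array lay below every cortex array of its site, and cortex replicate 2 of site 2 was the highest of all. The differences were -0.95 ± 0.10 (SE; limma adjusted p = 6.35e-07) at the first site and -1.13 ± 0.21 (limma adjusted p = 0.0021) at site 2. The other probe set of Igf2, 98622_at, did not exceed the brightest no-target control on any array except cortex replicate 4 of the first site, and passed the threshold at neither site (limma adjusted p = 0.256 and 0.937). That control, the brightest of 13 control probe sets with no target added to the sample, serves as the background level of each array.

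Dlk1, a membrane protein related to the Notch ligands that acts on stem and precursor cells, was lower in retina as well. The first-site readings of Dlk1 were 198, 197, 187, 162 and 194 in retina, against 362, 259.6, 243, 325 and 277 in cortex. Those of site 2 were 110.0, 103 and 100.5 in retina, against 227, 279 and 274 in cortex. The tissues did not overlap at either site, and the site 2 retina arrays were the lowest of all. The differences were -0.59 ± 0.11 (SE; limma adjusted p = 0.000229) at the first site and -1.18 ± 0.15 (limma adjusted p = 0.000213) at site 2. The change between sites, -0.59 ± 0.18, did not pass over all probe sets (limma adjusted p = 0.0801), with an interval from -0.97 to -0.21.

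Cdkn1c encodes p57Kip2, an inhibitor of cyclin-dependent kinases that holds precursor cells out of the cell cycle. Its first-site values were 264, 276, 264, 327 and 226 in retina, against 524, 502, 628, 585 and 631 in cortex. The site 2 values were 255, 281 and 274 in retina, against 545, 642 and 545 in cortex. The cortex mean was 2.11 and 2.14 times the retina mean at these sites, with no overlap. The differences were -1.04 ± 0.10 (SE; limma adjusted p = 1.82e-07) and -1.03 ± 0.14 (limma adjusted p = 0.000231), and the change between them was 0.01 with an interval from -0.32 to 0.34.

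Ndn encodes necdin, a MAGE-family protein of postmitotic neurons that restrains growth. Its probe set 101059_at read 1838, 1782, 1859, 1866 and 1683 in retina and 3879, 3431, 3329, 3913 and 3209 in cortex on the first-site arrays. At site 2 it read 1681, 2117 and 2084 in retina and 2871, 4588 and 2680 in cortex. Retina was lower without overlap at both sites, with differences of -0.96 ± 0.08 (SE; limma adjusted p = 1.96e-08) and -0.71 ± 0.17 (limma adjusted p = 0.00954). The second probe set of Ndn, 94811_s_at, whose suffix marks probes shared by related transcripts, gave another picture. Here the first-site arrays read 1073, 962, 1062, 890.4 and 900 in retina and 2559, 2904, 2260.1, 2381 and 2596 in cortex, a difference of -1.35 ± 0.08 (SE; limma adjusted p = 8.26e-10). The site 2 arrays read 1917, 2058 and 1961 in retina and 2779.9, 1991 and 2578 in cortex, where the tissues overlapped. That difference was -0.26 ± 0.20 (SE; limma adjusted p = 0.407), and -0.50 (limma adjusted p = 0.00171) without cortex replicate 2 of site 2.

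Nnat encodes neuronatin, a small membrane protein of the endoplasmic reticulum in developing neurons, and was among the genes furthest below cortex. On the first-site arrays its probe set 97520_s_at, which carries the same suffix, read 217, 282, 235.0, 239.9 and 175 in retina, against 7481, 7506, 6086, 7193 and 5963 in cortex. On the site 2 arrays it read 578, 465 and 388 in retina, against 5467, 6927 and 5035 in cortex. The lowest cortex array was far above the highest retina array at each site, and the ratio of group means, cortex over retina, was 29.8 at the first site and 12.2 at site 2. The differences were -4.81 ± 0.11 (SE; limma adjusted p = 2.69e-15) and -3.54 ± 0.17 (limma adjusted p = 2.90e-07). In order from the lowest difference, Nnat stood at 12 of 12422 probe sets at the first site and at 35 at site 2. Retina values were higher at site 2 than at the first site by 1.00 ± 0.14 (SE; limma adjusted p = 1.92e-05), while in cortex the site difference was -0.27 ± 0.14 (limma adjusted p = 0.193).

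Meg3, a maternally expressed long noncoding RNA of the domain that also holds Dlk1, was lower in retina on both probe sets. On 160173_at the first site read 335, 320.1, 351, 325 and 311 in retina, against 1652, 1637, 1522, 1641 and 1765 in cortex. Site 2 read 525, 479.8 and 531 in retina, against 2693, 2375 and 2295 in cortex. Replicates were tight, both tissues read higher at site 2, and the tissue difference at site 2, -2.20 ± 0.16 (SE; limma adjusted p = 3.65e-06), lay close to the -2.26 ± 0.07 (limma adjusted p = 9.98e-14) of the first site.

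On the other probe set of Meg3, 160172_at, the first site read 28.7, 29.8, 31.8, 33.3 and 33.5 in retina, against 1401, 1444, 1245, 1278 and 1541 in cortex. Site 2 read 28.6, 107 and 140.3 in retina, against 1629, 1033 and 1480.2 in cortex. The first-site retina arrays were little above their background level, which ran from 18.5 to 29.2 in scaled intensity, and replicate 1 of the site 2 retina read as low as they did. Its difference was -4.93 ± 0.09 (SE; limma adjusted p = 2.33e-16) at the first site and -3.86 ± 0.43 (limma adjusted p = 6.87e-05) at site 2. The change between sites, 1.07 ± 0.39, did not pass (limma adjusted p = 0.151), and was 1.63 (limma adjusted p = 0.000845) without retina replicate 1 of site 2.

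Peg3 encodes a large zinc finger protein with roles in cell survival and maternal behaviour in mice. Its probe set 96765_at read 954, 981, 925, 1055 and 864 in retina and 1104, 1096, 1048, 1064 and 1172 in cortex on the first-site arrays, with overlap. At site 2 it read 1059.8, 1185 and 1145 in retina and 1009, 1883 and 950.2 in cortex, where the retina values lay inside the cortex range. The first-site difference of -0.19 ± 0.07 (SE; limma adjusted p = 0.0339) lost its call without any 1 of 5 arrays (retina replicates 2, 3 and 5 and cortex replicates 1 and 5), at -0.15 to -0.20, and site 2 gave -0.08 ± 0.19 (limma adjusted p = 0.892).

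Probe set 101451_at of Peg3 separated the tissues mainly at site 2. There it read 159, 175 and 168 in retina, against 619, 1172 and 525.6 in cortex, a difference of -1.99 ± 0.21 (SE; limma adjusted p = 5.24e-05). On the first-site arrays it read 438, 462, 429, 458 and 386 in retina, against 528, 502, 485, 541 and 532 in cortex, a difference of -0.24 ± 0.07 (SE; limma adjusted p = 0.0124). All site 2 retina arrays were below all other arrays. The third probe set, 161316_f_at, whose suffix marks probes shared within a gene family, ran from 213 to 243 in retina and from 221 to 234 in cortex on the first-site arrays. The site 2 range was 152 to 165 in retina and 129 to 203 in cortex. Its differences were 0.03 ± 0.07 (SE; limma adjusted p = 0.783) and -0.03 ± 0.17 (limma adjusted p = 0.977).

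Mest, a member of the alpha/beta hydrolase fold family expressed widely in the embryonic mesoderm, was higher in retina. The first-site readings of Mest were 289, 283, 312, 363 and 249 in retina, against 127, 123, 124, 152 and 179 in cortex. Those of site 2 were 539.9, 502 and 486 in retina, against 189.8, 210.1 and 267 in cortex. The mean in retina was 2.12 times that in cortex at the first site and 2.29 times at site 2, without overlap, and both tissues read higher at site 2. The differences were 1.02 ± 0.12 (SE; limma adjusted p = 1.95e-06) and 1.17 ± 0.17 (limma adjusted p = 0.000513).

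Impact, which binds Gcn1 and so restrains the stress kinase Gcn2, was higher in retina too. Its probe set 101501_r_at read 277, 317, 266, 243 and 188 in retina, against 94.9, 49.3, 70.6, 107 and 82.3 in cortex, on the first-site arrays. At site 2 it read 528, 269 and 350.0 in retina, against 43.0, 48.6 and 70.5 in cortex. Arrays of a group were widely spread, with a coefficient of variation of 18.4% in retina and 27.4% in cortex for the first site, yet the tissues did not overlap. The retina mean was 3.20 times the cortex mean there and 7.08 times at site 2. The differences were 1.53 ± 0.16 (SE; limma adjusted p = 7.20e-07) and 2.47 ± 0.25 (limma adjusted p = 3.89e-05). The suffix of this probe set marks a design that broke some of the probe selection rules, and the change between sites, 0.94 ± 0.31, did not pass (limma adjusted p = 0.0995).

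**Figure D3:**
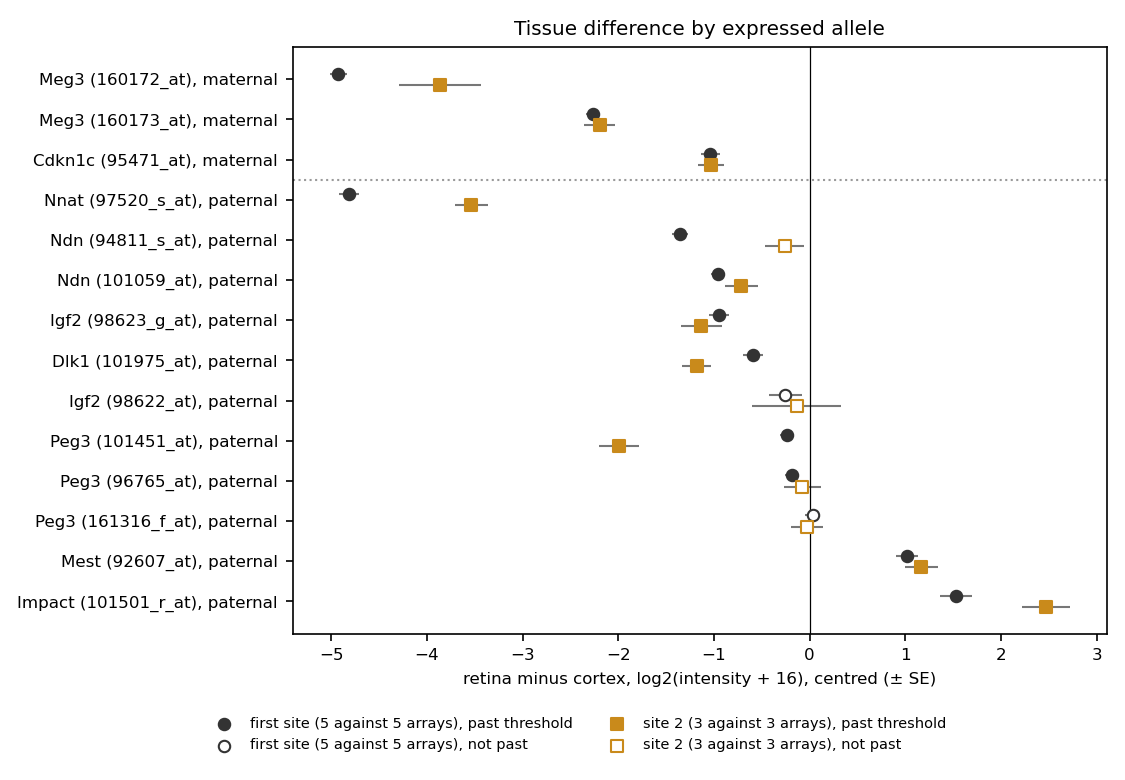
Retina minus cortex differences (log2(intensity + 16), centred, bars ± SE) of the 14 probe sets at the first site (circles, 5 against 5 arrays) and site 2 (squares, 3 against 3 arrays). Filled symbols passed an adjusted p under 0.05, and the dotted line parts maternally from paternally expressed genes. The 3 maternal probe sets lie at or below -1.03 at both sites, while the paternal ones run from -4.81 to 1.53 at the first site.

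By expressed allele, all 3 probe sets of the maternally expressed Meg3 and Cdkn1c were lower in retina at both sites. Of the 11 probe sets of paternally expressed genes, 7 were lower, 2 higher and 2 not past the threshold at the first site. At site 2, 5 of the 11 were lower, 2 higher and 4 not past it. Over all probe sets 21.9% were higher and 25.2% lower at the first site and 16.7% higher and 15.9% lower at site 2, so the 2 of 11 higher were near the general share. The median difference was -2.26 over the maternal and -0.25 over the paternal probe sets at the first site. That paternal median is the value of Igf2 on 98622_at, which was at or under background on all 5 retina and 4 of 5 cortex arrays there. At site 2 it was -2.20 over the maternal and -0.26 over the paternal ones. With 1 probe set per gene the medians were -1.65 over 2 maternal genes and -0.59 over 7 paternal genes at the first site, and -1.61 and -0.71 in that order at site 2. The paternally expressed Nnat, at -4.81 and -3.54, lay below the maternally expressed Cdkn1c and Meg3 on 160173_at at both sites, and above Meg3 on 160172_at, at -4.93 and -3.86. With 2 maternal genes no test of the allele classes was made.

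The tissue difference changed between sites for 3 of the 14 probe sets in the fit over all 16 arrays, against 3.36% of all probe sets, with 2 changes upward (2.07% of all) and 1 downward (1.30% of all). Over all probe sets that split, 257 up and 161 down, was 215 and 230 after quantile normalization and 55 and 74 with centring on probe sets called at neither site. In the fit on probe sets above the median signal, 4 of 13 and 545 of 6211 passed. For Nnat the tissue difference was less negative at site 2 by 1.27 ± 0.19 (SE; limma adjusted p = 0.000627), and for Ndn on 94811_s_at by 1.09 ± 0.19 (limma adjusted p = 0.00279). For Peg3 on 101451_at it was more negative at site 2, with a change of -1.75 ± 0.19 (limma adjusted p = 1.32e-05). The other probe sets of Ndn and Peg3 did not share these changes past the threshold, with 0.24 (limma adjusted p = 0.499) for 101059_at, 0.11 (limma adjusted p = 0.855) for 96765_at and -0.06 (limma adjusted p = 0.935) for 161316_f_at.

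Within retina, 8 of the 14 probe sets differed between site 2 and the first site, against 35.7% of all probe sets, 5 of them higher (23.2% of all) and 3 lower (12.5% of all) at site 2. In the fit on probe sets above the median signal, 8 of 13 and 3435 of 6211 differed, which are similar shares. Over all probe sets the split was 2882 higher and 1555 lower, but 2202 and 1935 after quantile normalization and 3343 and 775 with centring on probe sets called at neither site. Besides Nnat, those higher at site 2 were Ndn on 94811_s_at by 1.00 ± 0.14, Meg3 on 160172_at by 1.02 ± 0.28 and on 160173_at by 0.61 ± 0.10, and Mest by 0.74 ± 0.15. The value of Meg3 on 160172_at was 1.59 without retina replicate 1 of site 2 and was not past the threshold without replicate 2 (0.82; limma adjusted p = 0.0593) or replicate 3 (0.65; limma adjusted p = 0.0899). The lower ones were Dlk1 at -0.76 ± 0.13, Peg3 on 101451_at at -1.31 ± 0.14 and Peg3 on 161316_f_at at -0.54 ± 0.11. Within cortex, 4 of the 14 differed, against 16.7% of all, 3 of them higher (10.3% of all) and 1 lower (6.40% of all) at site 2. Among probe sets above the median signal, 4 of 13 and 1789 of 6211 differed, again similar shares. The 4 of the 14 were Meg3 on 160173_at (0.54 ± 0.10), Mest (0.59 ± 0.15) and Peg3 on 101451_at (0.45 ± 0.14), all higher at site 2, and Peg3 on 161316_f_at (-0.48 ± 0.11). Of these cortex calls, all but that of Meg3 depended on single arrays. Peg3 on 101451_at was not past the threshold without cortex replicate 2 of site 2 (0.19; limma adjusted p = 0.106), or without cortex replicate 2 or 3 of the first site (0.43 and 0.42). Mest was not past it without cortex replicate 3 of site 2 (0.43; limma adjusted p = 0.0683), nor Peg3 on 161316_f_at without cortex replicate 1 of site 2 (-0.34; limma adjusted p = 0.0531). Without cortex replicate 2 of site 2, 2 of the 14 were higher and 3 lower, and over all probe sets the balance turned to 2176 higher and 2800 lower, against 1281 higher and 795 lower with it. After quantile normalization the split was 1110 higher and 1147 lower, and with centring on probe sets called at neither site it was 1236 higher and 323 lower. Cdkn1c, Igf2 and Ndn on 101059_at passed in neither tissue.

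Other imprinted genes were read on 1 probe set each, for 22 of 40 listed. At the first site 2 were higher in retina, 10 lower and 10 not past the threshold, and at site 2 1 was higher, 5 lower and 16 not past it. Over all probe sets 21.9% were higher and 25.2% lower at the first site and 16.7% higher and 15.9% lower at site 2, so the site 2 share of lower genes was near the general one. The median difference was -0.24 at the first site and -0.30 at site 2, against -0.05 and -0.02 over all probe sets. Of 8 measured paternally expressed genes, 5 were lower and 1 higher at the first site, and 4 lower and 1 higher at site 2, with medians of -0.70 and -0.87. Of 12 maternally expressed ones, 4 were lower and 1 higher at the first site, and 1 was lower and the other 11 not past the threshold at site 2, with medians of -0.12 and -0.20. Here the paternal median was the lower of the allele classes, whereas among the growth genes above the maternal one was. Rasgrf1, a paternally expressed activator of Ras signalling, was higher in retina by 2.95 ± 0.11 (SE; limma adjusted p = 2.66e-12) at the first site and 3.14 ± 0.16 (limma adjusted p = 4.13e-07) at site 2. At the first site 3 of its 5 cortex arrays were at or under background, so the size of that difference is uncertain. Cd81, a tetraspanin, was higher at the first site by 0.19 ± 0.07 (limma adjusted p = 0.0275).

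The other imprinted genes lower in retina included neighbours of Ndn. Magel2, a ubiquitin ligase regulator, differed by -2.61 ± 0.12 (SE) at the first site, where all retina arrays were at or under background, which makes it at least 5.29-fold lower. Mkrn3, a RING finger protein that restrains puberty, differed by -1.01 ± 0.12 at the first site and -1.18 ± 0.19 at site 2. Peg10, a retrotransposon-derived gene needed in placenta, differed by -1.20 ± 0.17 and was at least 2.57-fold lower at the first site. Usp29, a neighbour of Peg3, differed by -0.83 ± 0.21, and the growth-regulating zinc finger gene Plagl1 by -0.58 ± 0.15, both at the first site. For Usp29, 3 of 5 retina arrays there were at or under background. Calcr, the calcitonin receptor gene, is counted as lower at -1.20 ± 0.19, but all 5 retina and 3 of 5 cortex arrays of the first site were at or under background, so no direction was measured there. At site 2 its 3 retina arrays were at or under background and its cortex arrays were not, which makes it at least 1.73-fold lower. These 6 passed the limma test at the first site (adjusted p from 2.03e-11 to 0.00488), and of them Usp29 and Plagl1 did not pass at site 2 (adjusted p = 0.114 and 0.997).

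**Figure D4:**
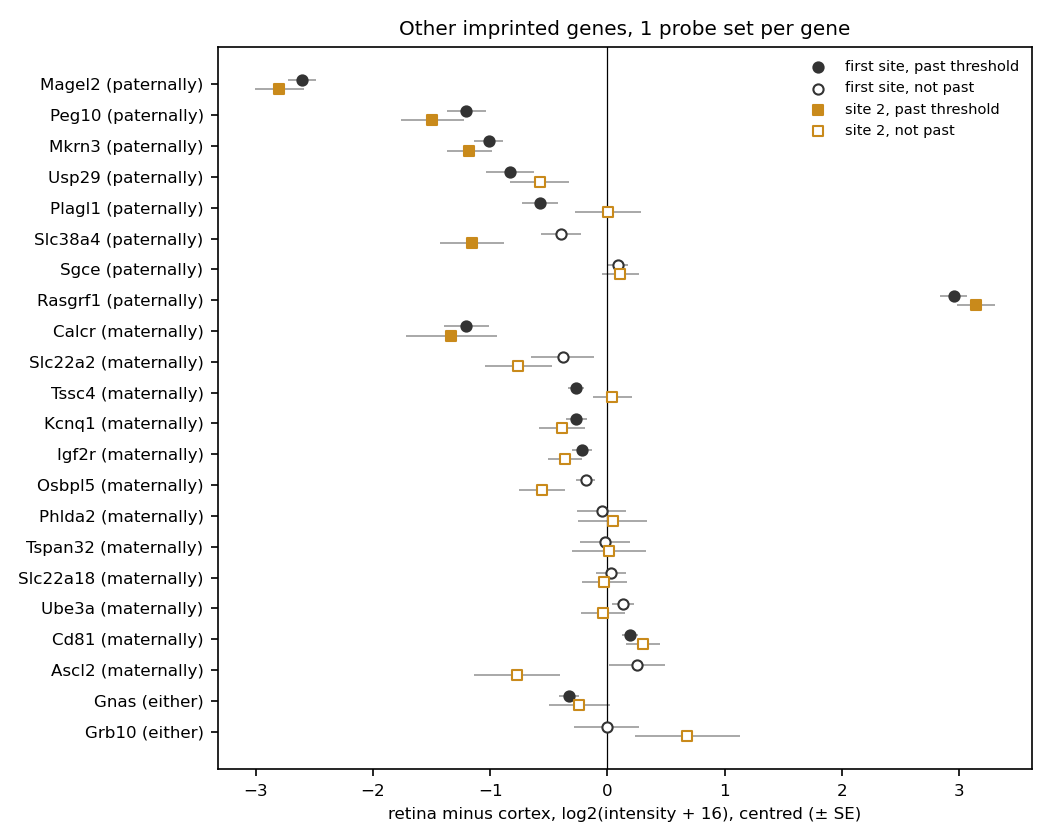
Retina minus cortex differences (log2(intensity + 16), centred, bars ± SE) of 22 other imprinted genes, grouped by expressed allele, at the first site (circles) and site 2 (squares). Filled symbols passed an adjusted p under 0.05. Rasgrf1 lies at 2.95 and 3.14, and Magel2 at -2.61 and -2.80.

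Genes of the insulin-like growth factor system, through which Igf2 acts, were measured for 9 of 10 listed, with 2 higher and 3 lower in retina at the first site and 1 higher and 4 lower at site 2. The binding proteins Igfbp2 (-1.50 ± 0.08), Igfbp3 (-1.57 ± 0.17, at least 2.64-fold) and Igfbp4 (-0.68 ± 0.12) were lower at the first site, of which Igfbp4 did not pass at site 2 (-0.38; limma adjusted p = 0.202). Igf1 was higher at the first site by 0.35 ± 0.08 and stood at -0.03 (limma adjusted p = 0.974) at site 2. The receptor gene Igf1r was higher in retina at the first site by 0.62 ± 0.10 and lower at site 2 by a difference of -0.83 ± 0.26, and the change between sites passed (limma adjusted p = 0.00279). Its cortex arrays of site 2 were widely spread, with a mean of 1139 and an SD of 670, against 558 and 41.0 in retina there. The direction at site 2 is therefore less certain.

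Igf2 is also made by the meninges and the choroid plexus, which a brain dissection can carry, so markers of these and of blood and vessel cells were read beside it. Of 12 meningeal fibroblast genes, 9 were lower and 2 higher in retina at the first site, and 8 lower and 1 higher at site 2. The 9 include Aldh1a2, with all 5 retina and all 5 cortex arrays of the first site at or under background. They also include Fmod, with 5 retina and 3 cortex arrays there at or under background. No direction was therefore measured for Aldh1a2 and Fmod at the first site. Aldh1a2 is also among the 8 of site 2, where 3 retina arrays and 1 cortex array were at or under background. Col3a1 differed by -2.34 ± 0.16 and Dcn by -2.19 ± 0.10 at the first site, in the direction of Igf2. The summed scaled intensity of the 12 ran the other way on the first-site arrays, 3780 to 4550 in retina and 2621 to 2739 in cortex, and this direction rests on Vtn, which was higher in retina by 4.11. Without Vtn, left out after its values were seen, the sum was 1240.4 to 1629 in retina and 2476 to 2601 in cortex. At site 2 the sum of the 12 was 4409.6 to 4844 in retina and 2335 to 3173 in cortex, and without Vtn it was 1071 to 1095 in retina and 2143 to 3004 in cortex. At the first site 4 of the 12 were at or under background on every retina array and 1 on every cortex array.

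Of 11 endothelial and mural genes, 6 were lower and 2 higher in retina at the first site, with a sum of 1153 to 1334 in retina and 1388 to 1571 in cortex. At site 2 the sums were 1233 to 1303 in retina and 1496 to 1753 in cortex. Of 7 erythroid genes, 4 were lower and the other 3 not past the threshold at the first site, with a sum of 895 to 1054 in retina and 3480 to 3858 in cortex. Among 5 choroid plexus genes, first-site calls put 4 above cortex and 1 below, and site 2 calls 3 above and 1 below. Kl is 1 of the 4, but all its cortex and 2 of 5 retina arrays there were at or under background. No direction was therefore measured for Kl at the first site. The first-site sum was 1097 to 1427 in retina and 504 to 696 in cortex. That gap rests largely on Aqp1 (mean 557 in retina, 9.71 in cortex) and Slc4a5 (246 and 23.6). Ttr, the abundant transthyretin transcript of that tissue, went the other way, with a first-site difference of -0.30 ± 0.11. The part of these cells in the differences of Igf2, Dlk1 and the other imprinted genes was not tested.

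Profiles over the 16 arrays were set against all genes outside the group as a description, by Pearson's r of centred log2 values, which share tissue and site. The profile most like that of Nnat was Crmp1 (r = 0.996), then Marcksl1 (r = 0.994). For Meg3 on 160173_at they were St6galnac5 (r = 0.995) and Cnih2 (r = 0.993). For Cdkn1c they were Acvr2a and Spast (r = 0.982 each), and for Ndn on 101059_at Tubb2a (r = 0.984) and Stmn1 (r = 0.981). For Mest they were Mrpl36 (r = 0.972) and Nfs1 (r = 0.970), and for Impact Sec14l2 (r = 0.968) and Cdk18 (r = 0.961). For Dlk1 they were Zbtb12 (r = 0.967) and Rbms1 (r = 0.950), and for Igf2 on 98623_g_at Arpc2 (r = 0.961) and Cort (r = 0.960). Most of these profiles are high in 1 tissue and low in the other, which alone gives a high r.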

How the data were processed

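Each array received labelled cRNA from some 10 µg of TRIzol-extracted total RNA, per the labels. The authors deposited 1 linear intensity per probe set and array, for 12488 probe sets. The algorithm behind these deposited intensities is not given in the sources used here, and no common scaling was visible. After 66 control probe sets were left out, values were turned into log2(intensity + 16) and centred on each array's median. The linear models were those of limma 3.58.1 under R 4.3.3 (lmFit, eBayes with an intensity trend), by site for the tissue comparisons and over 16 arrays for the site comparisons and the interaction, with two-sided tests at 0.05, adjusted by Benjamini-Hochberg over the 12422 probe sets. The procedure was tested on simulated arrays. Symbols came from the platform annotation, updated through RefSeq identifiers: 10833 probe sets had 1 symbol, 396 several and 1193 none. For lists, a gene with several probe sets is read on the brightest, by its mean. A fold given as "at least" raises dim values to the highest of 13 no-target controls of the array.

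All probe sets of the genes were described. By a fixed rule, up to 6 other imprinted genes and 3 insulin-like growth factor genes per direction were named by their first-site difference, and 2 profiles per gene. The genes and lists were chosen with earlier results of these data known, and the cell markers and promoter motifs named were picked as examples. Alternatives tried were no centring, quantile normalization, pseudocounts of 1 and 50, scaling before the pseudocount, brighter probe sets only, no trend, a replicate block, 1 fit for all arrays, another centring set and leaving out each array. The number of arrays limits the precision.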

Additional observations from a re-analysis of the deposited data

Results flagged for a closer look

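The tissue difference of 3 probe sets changed between the sites, by the interaction test of limma over all 16 arrays. For Nnat (97520_s_at) the change was 1.27 on the log2 scale (adjusted p = 0.000627), and the retina signal was higher at site 2 by 1.00. For Peg3 (101451_at) it was -1.75 (adjusted p = 1.32e-05), and the retina signal was lower at site 2 by a difference of -1.31. For Ndn (94811_s_at) it was 1.09 (adjusted p = 0.00279), and the retina signal was higher at site 2 by 1.00. Both other probe sets of Peg3 and the other probe set of Ndn were not past the threshold in the same test. Without centring, the changes of Nnat (1.13) and Ndn (0.95) were about as large but not past the threshold (adjusted p = 1.00 each), while that of Peg3 (-1.89) was (adjusted p = 0.0458). Dixon's criterion was applied to the 28 first-site groups of 5 arrays, the site 2 groups being too small for it, and found 0 outlying arrays in centred log2 values. In scaled intensity, a scale added after seeing the data, it found 1, the first-site cortex replicate 4 of Igf2 (98622_at), at 18.9 (ratio 0.874). Chance gives about 1 in 20 groups.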

How the results depend on the processing

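Of the 12 first-site calls, 10 held under every alternative that tested them, and the other 2, Peg3 on 101451_at and on 96765_at, lost their call under 3 and 11 alternatives, without a change of sign. The lowest number of the 14 probe sets called was 10 at the first site. Without centring, in which array brightness enters the spread, 5 were called at site 2, 1 for the interaction, 1 between sites in retina and 0 in cortex, and 781, 34, 290 and 79 of all probe sets in the same order. The site 2 calls lost were Igf2 on 98623_g_at (-1.19), Dlk1 (-1.24), Cdkn1c (-1.08), Ndn on 101059_at (-0.77) and Mest (1.11), with differences about as large as before. In the interaction Nnat (1.13) and Ndn on 94811_s_at (0.95) lost theirs. For the 0 in cortex, 0 of the 14 had an unadjusted limma p under 0.05 either. Without the dim cortex replicate 2 of site 2 the cortex site comparison called 5 of the 14 and 4976 of all probe sets, against 2076 with it. With centring on probe sets called at neither site it called 3 of the 14, all higher, since Peg3 on 161316_f_at lost its call (-0.34), as it did in retina (-0.34). The interaction called 418 of all probe sets, 255 without the intensity trend, 129 with centring on probe sets called at neither site, and 212 to 671 without 1 array. Under that centring Ndn on 94811_s_at was no longer past the threshold in the interaction (1.15; limma adjusted p = 0.098). On the brighter probe sets only, the change of Dlk1 between sites passed (-0.59; limma adjusted p = 0.0457). At site 2, Ndn on 101059_at was not past the threshold when arrays were scaled before the pseudocount (-0.75; limma adjusted p = 0.0525).

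The median difference over all probe sets turned sign under some alternatives. At site 2 it went from -0.02 to 0.065 with centring on probe sets called at neither site. At the first site it went from -0.05 to 0.026 without centring. Signs for single genes outside the growth genes are not given here. Among the values reported for probe sets of the growth genes, signs turned only for 3 tissue differences at site 2 and 3 changes between sites. All of these passed no threshold. With centring on probe sets called at neither site, Peg3 gave 0.057 on 161316_f_at and 0.0099 on 96765_at. Igf2 on 98622_at gave 0.0019 at a pseudocount of 50. Leaving out 1 array gave -0.17 to 0.076 for Peg3 on 161316_f_at, -0.19 to 0.14 for Peg3 on 96765_at and -0.53 to 0.26 for Igf2 on 98622_at, each highest without the dim cortex replicate 2. The near-zero change of Cdkn1c between sites was -0.13 without centring, -0.056 after quantile normalization, -0.010 with scaling before the pseudocount, -0.0083 at a pseudocount of 1 and -0.054 to 0.074 without 1 array. That of Peg3 was -0.025 on 96765_at without centring and, without 1 array, -0.0049 to 0.33 there and -0.20 to 0.045 on 161316_f_at. The paternal median at the first site was -0.59 on the lead probe set or the mean of a gene's probe sets and -0.50 at a pseudocount of 1, and at site 2 it was -0.71 on the lead probe set. The maternal median was -1.65 at the first site and -1.61 at site 2 on the lead probe set, and -2.32 and -2.03 on the mean of a gene's probe sets, where the paternal one at site 2 was -0.63.

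Deviations of same-numbered retina and cortex arrays were weakly correlated, at -0.19 to 0.04 at the first site and 0.01 to 0.08 at site 2. With so few arrays this cannot show whether the numbers pair the samples. With the replicate block the probe sets called were 11 at the first site, 10 at site 2, 3 for the interaction, 8 between sites in retina and 3 in cortex. Probe sets at or under the no-target controls, such as Igf2 on 98622_at, carry no measured order.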

Other observations

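Some imprinted genes not named above moved at a single site. Slc38a4, a paternally expressed amino acid transporter gene, differed by -1.16 ± 0.27 at site 2 (SE; limma adjusted p = 0.00784) and by -0.40 ± 0.17 at the first site (limma adjusted p = 0.0724). Igf2r, the maternally expressed receptor that clears Igf2, differed by -0.22 ± 0.08 at the first site (limma adjusted p = 0.0444) and -0.36 ± 0.15 at site 2 (limma adjusted p = 0.0896). Gnas, whose imprinting depends on promoter and tissue, differed by -0.33 ± 0.08 at the first site (limma adjusted p = 0.00365) and -0.24 ± 0.26 at site 2 (limma adjusted p = 0.599). For these 3 genes the change between sites did not pass (limma adjusted p = 0.21, 0.731 and 0.94). They were named after their values were seen.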
